A study of Homo sapiens with 14 samples.

Results

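The genes described here are members of the BCL2 family, the proteins that decide whether the mitochondrial outer membrane is breached during apoptosis, together with APAF1, which acts just after that step. They were taken by symbol from a list of 10 genes, BAX, BAK1, BBC3, PMAIP1, BIK, BID, BCL2L11, BCL2L1, MCL1 and APAF1, and a gene was measured where the array carried a probe set annotated to that gene alone. This held for 9 of the 10, out of 19775 genes measured in the same way, and the 9 genes had 29 such probe sets. The only probe set of BBC3 (PUMA) also names 2 microRNA genes, so BBC3 is not analysed here. Where a gene had several probe sets, the one with the highest mean over all arrays stood for it and the others are described beside it.

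The cells were Hep3BTAp73β, a derivative of the human hepatocellular carcinoma line Hep3B. They carry a Tet repressor plasmid and a TAp73β cDNA in the pT-REx-DEST30 vector, and they come from colonies picked after blasticidin and G418 selection. Dox+ cells received 1 μg/mL doxycycline, which releases the repressor and turns TAp73β on, and Dox- cells were the same line without doxycycline. RNA was hybridised to Affymetrix U133 Plus 2.0 arrays after 12 h (2 Dox- and 2 Dox+ arrays), 24 h (2 and 2) and 48 h (3 and 3), 14 arrays in all. No parental Hep3B cells given doxycycline were among these arrays, so an effect of the drug and one of TAp73β cannot be told apart. The arrays are labelled as biological replicates of this line, and p-values measure the spread between such cultures only.

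In the mitochondrial pathway of apoptosis, BAX and BAK1 are the effectors that form pores in the outer membrane. BH3-only proteins such as BCL2L11 (BIM), BID, BIK, PMAIP1 (NOXA) and BBC3 promote pore formation, directly or by occupying the anti-apoptotic members BCL2L1 (BCL-XL) and MCL1. Cytochrome c that leaves the mitochondrion binds APAF1, which assembles into the apoptosome and activates caspase 9. Several of these genes are textbook targets of the p53 family of transcription factors, to which TAp73 belongs and whose members recognise DNA elements of the same type.

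The promoters of APAF1, BAX and BCL2L11, which were higher in Dox+ cells at 1 or more time points, and of BAK1, the effector whose level did not pass the test at any time, are shown for comparison. Each is the 250 bases before the annotated start of the gene in RefSeq (build GRCh38.p14), read 5′ to 3′ on the strand of the gene. Capitals mark matches, on either strand, to 3 motifs: the p53-family half-site decamer with no mismatch, the E-box CACGTG, and the GC box GGGCGG.
APAF1, chr12:98645040-98645289, plus strand: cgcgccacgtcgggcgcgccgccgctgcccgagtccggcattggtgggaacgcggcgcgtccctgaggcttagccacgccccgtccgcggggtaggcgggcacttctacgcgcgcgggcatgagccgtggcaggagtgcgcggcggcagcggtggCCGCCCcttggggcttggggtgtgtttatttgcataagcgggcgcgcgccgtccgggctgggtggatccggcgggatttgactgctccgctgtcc
BAX, chr19:48954625-48954874, plus strand: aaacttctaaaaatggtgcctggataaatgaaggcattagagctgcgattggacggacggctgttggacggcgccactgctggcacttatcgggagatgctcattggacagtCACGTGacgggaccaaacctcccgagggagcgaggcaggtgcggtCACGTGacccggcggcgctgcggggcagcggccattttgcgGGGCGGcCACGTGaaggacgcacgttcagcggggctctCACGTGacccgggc
BCL2L11, chr2:111120664-111120913, plus strand: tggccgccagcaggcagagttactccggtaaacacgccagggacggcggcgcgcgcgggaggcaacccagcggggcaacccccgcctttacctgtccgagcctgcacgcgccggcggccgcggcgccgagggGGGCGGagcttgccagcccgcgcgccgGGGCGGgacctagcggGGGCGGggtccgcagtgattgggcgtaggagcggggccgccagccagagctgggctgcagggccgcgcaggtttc
BAK1, chr6:33580277-33580526, minus strand: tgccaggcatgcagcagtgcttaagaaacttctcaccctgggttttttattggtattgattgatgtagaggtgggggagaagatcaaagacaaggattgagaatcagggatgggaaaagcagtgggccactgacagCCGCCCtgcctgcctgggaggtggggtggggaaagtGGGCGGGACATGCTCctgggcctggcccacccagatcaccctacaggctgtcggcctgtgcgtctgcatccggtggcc

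Entries were found for 8 of the 10 listed genes, with 13 windows in all, and BIK and MCL1 had none. The p53-family half-site decamer was matched in BAK1 alone among these 13 windows, beginning 73 bases before the start and sharing 1 base with a GC box, and it occurs in 5.57% of the 35116 windows of this length in the table. BAX held 4 copies of CACGTG, beginning 138, 93, 45 and 14 bases before its start, a number reached or passed in 0.0142% of windows (at least 1 copy in 6.34%). BBC3 held 1 copy of CACGTG, as did some of the windows of BID. GC boxes numbered 4 in PMAIP1, 0 to 4 in the windows of BID, 3 in BCL2L11, 2 in BAK1, 1 in APAF1 and 1 in BAX. At least 1 occurs in 42.6% of all windows and at least 4 in 7.63%. Both windows of BCL2L1 held none of the 3 motifs. These are matches of letters within a short window and say nothing of binding in these cells.

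The switch itself was visible on every array. TP73 lay between 5.82 and 6.08 (log2 expression) on the 7 Dox- arrays and between 7.89 and 8.30 on the 7 Dox+ arrays. Arrays correlated at 0.980 to 0.999 over genes. The root mean square SD over genes was 0.150 to 0.209 (log2) in the groups of 12 and 24 h and 0.105 to 0.111 in those of 48 h, so the 48 h comparison was the more precise. The 6 hepatocyte lineage markers had a summed level (log2 of the sum) of 15.34 to 15.59 over all groups, a sum that their brightest members dominate. At 48 h 4 of the 6 passed as lower in Dox+ cells, APOA1 (-0.86), TTR (-0.82), TF (-0.42) and AFP (-0.40), and SERPINA1 passed as higher (0.54). The sums of 3 leukocyte and 4 endothelial markers stayed between 7.08 and 7.75. The summed fibroblast and stellate markers were 9.63 in Dox- and 10.09 to 10.13 in Dox+ cells at 24 h, where 1 of the 4, LUM, passed as higher (0.64), and 9.23 to 9.46 against 10.14 to 10.41 at 48 h, where LUM (1.23) and ACTA2 (0.97) did. The part of these markers in the results at 24 and 48 h was not tested.

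The 3′ and 5′ control probe sets of ACTB and GAPDH, whose difference widens as RNA is degraded or its copying stops short, were compared between the groups. The difference of ACTB was larger on every Dox+ array at 12 and 24 h. At 12 h the ACTB difference was 1.50 to 1.60 (log2) in Dox- and 1.85 to 2.26 in Dox+ cells, at 24 h 0.81 to 0.95 and 1.35 to 1.45, and at 48 h 0.86 to 0.89 and 0.79 to 1.03. The GAPDH difference was 0.43 to 0.49 in Dox- and 0.91 to 1.00 in Dox+ cells at 24 h, and at 12 h it was 0.89 and 1.12 against 0.96 and 1.77, the highest being Dox+ replicate 1. The groups thus stood apart at 12 h for ACTB alone and at 24 h for both genes, they overlapped at 48 h, and the part of this measure in the results at 12 and 24 h was not tested.

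**Figure D1:**
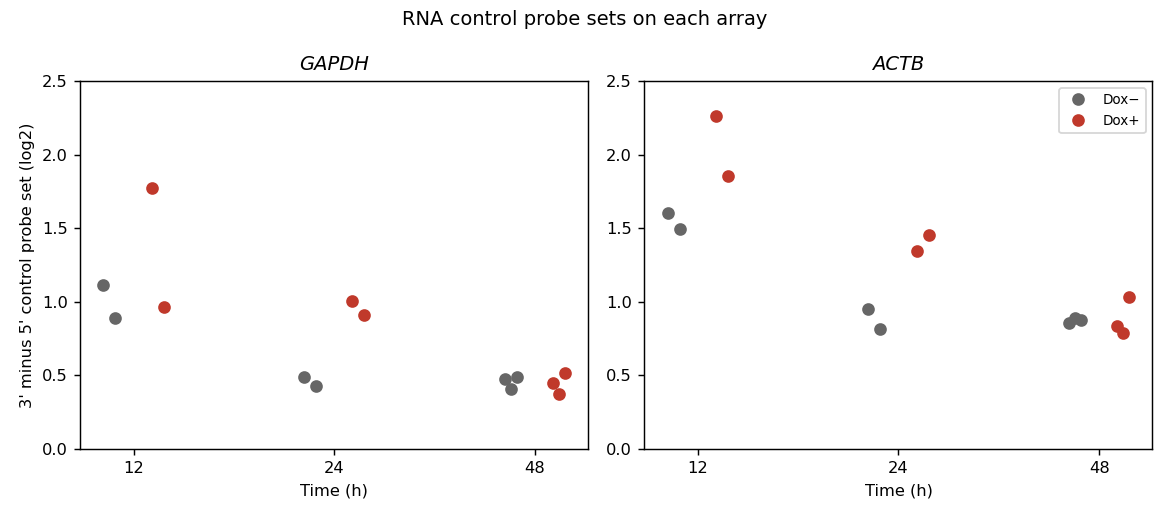
The difference between 3′ and 5′ control probe sets of GAPDH (left) and ACTB (right), in log2 units, on each of the 14 arrays by time, with Dox- arrays in grey and Dox+ arrays in red. The groups do not overlap at 24 h for either gene and overlap at 48 h for both.

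At 48 h, 5 of the 9 genes were higher in Dox+ than in Dox- cells: APAF1, the BH3-only genes BIK and BCL2L11, the effector BAX, and BCL2L1, which opposes the others. At 24 h 2 of the 9, APAF1 and BCL2L11, passed as higher, and at 12 h 0 of 9 passed. None of the 9 passed as lower at any time, where 0.0202% of all genes did at 12 h, 2.81% at 24 h and 12.9% at 48 h. These counts are from limma with Benjamini-Hochberg adjustment over all 19775 genes (adjusted p under 0.05). Over all genes, 0.668% passed at 12 h, 5.83% at 24 h and 24.2% at 48 h, and the share that passed as higher was 0.647%, 3.01% and 11.3%. At 12 h 2 of the 9 genes, and 2700 of all genes, had an unadjusted p under 0.05, and the spread there was the widest. Taking the 3 times in order, the median difference of the 9 genes was 0.04, -0.06 and 0.25 (log2), beside -0.04, 0.02 and -0.02 over all genes. At 24 h the calls over all genes split into 596 higher and 556 lower, and into 615 and 345 after quantile normalization. These are levels in RNA from whole cultures, in which fewer cells that express a gene and less RNA per cell cannot be told apart.

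**Figure D2:**
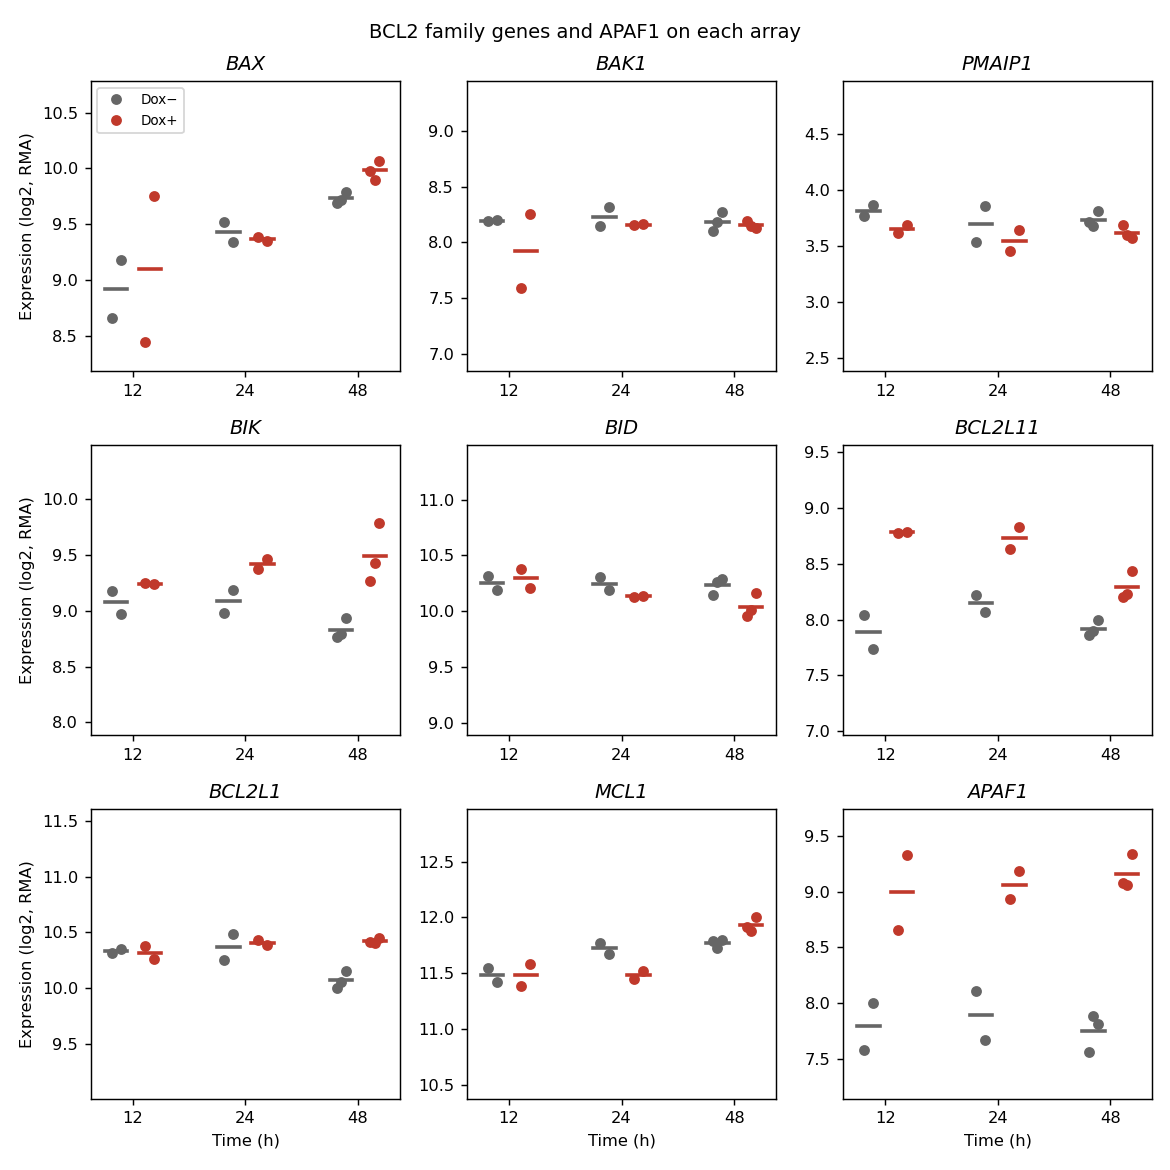
Expression (log2, RMA) of the highest-mean probe set of each of the 9 genes on every array, by time, with Dox- arrays in grey, Dox+ arrays in red and short lines at the group means. All panels span the same number of log2 units, and APAF1, BCL2L11 and BIK are the genes whose Dox+ arrays lie above the Dox- arrays at all 3 times.

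APAF1, the scaffold of the apoptosome, showed the widest difference of the group. Its Dox- arrays read 7.58 and 8.01 at 12 h, 8.11 and 7.67 at 24 h, then 7.57, 7.89 and 7.81 at 48 h. On the Dox+ arrays the values were 8.66 and 9.33, then 8.93 and 9.18, then 9.07, 9.06 and 9.34. Every Dox+ array was above every Dox- array, also across times. The difference was 1.20 ± 0.25 (log2, SE) at 12 h, a 2.30-fold higher level that did not pass the test (limma adjusted p = 0.101), 1.17 ± 0.17 at 24 h (2.25-fold, adjusted p = 0.00654) and 1.40 ± 0.10 at 48 h (2.65-fold, adjusted p = 1.72e-05). When 1 array was left out, the 12 h difference spanned 0.87 to 1.54. It was widest without Dox+ replicate 1, the array with the highest GAPDH difference, in a fit that left a lone Dox+ array. At 24 h APAF1 no longer passed by the t-test that the study's methods name (adjusted p = 0.348). The 48 h difference stood above those of 99.2% of all genes.

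The other probe sets of APAF1 moved less. At 48 h 211554_s_at was higher by 0.39 (adjusted p = 0.00511 over all probe sets) and 211553_x_at differed by 0.21 (0.0650), and at 12 and 24 h neither passed. The size given for APAF1 thus depends on the probe set.

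BCL2L11 encodes the BH3-only activator BIM, and its groups did not overlap at any of the 3 times, with Dox+ higher each time, as was also so for APAF1 and BIK. At 12 h it read 8.05 and 7.73 in Dox- and 8.77 and 8.79 in Dox+ cells. At 24 h the values were 8.22 and 8.07 against 8.64 and 8.83, and at 48 h 7.86, 7.90 and 8.00 against 8.20, 8.23 and 8.44. The Dox+ arrays were thus highest at the early times and nearest to the Dox- arrays at 48 h. The difference was 0.89 ± 0.16 at 12 h (1.86-fold, adjusted p = 0.0713), 0.59 ± 0.14 at 24 h (1.50-fold, adjusted p = 0.0418) and 0.37 ± 0.08 at 48 h (1.29-fold, adjusted p = 0.00727). The 24 h call was lost when any 1 of the 4 arrays was left out (adjusted p from 0.0574 to 0.191), and the 48 h call was lost by the methods' t-test (0.0609).

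Whether the BCL2L11 difference shrank over time was tested directly. The effect at 48 h minus that at 12 h was -0.52 ± 0.16 (log2), which did not pass (limma adjusted p = 0.0928, and 0.225 with array weights). Without Dox- 12 h replicate 1 this change was -0.68, in a fit without array weights that left a lone Dox- array at 12 h. Over the group, 0 of 9 genes differed between 48 and 12 h, where 1.05% of all genes did, and 0 of 9 between 48 and 24 h, where 0.657% did. At an unadjusted p under 0.05 there were 3 of 9 in the former (BIK, BCL2L11 and BCL2L1) and 2 of 9 in the latter (BCL2L1 and MCL1). The share of all genes at that looser threshold is not given here. These 2 counts therefore cannot be set against the 1.05% and 0.657%, and nothing is drawn from them.

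The 7 probe sets of BCL2L11 differed among themselves. At 48 h 1555372_at was higher by 0.39 (adjusted p = 0.0271 over all probe sets), next to 0.37 for the main one. The other 5 lay between -0.10 and 0.04 and did not pass. At 12 h 1555372_at differed by 1.13, also without passing (limma adjusted p = 0.0892), and the other 5 lay between -0.14 and 0.44. At 24 h the probe sets besides the main one lay between -0.24 and 0.39, and none of them passed. BIM is made in several spliced forms, and which of them each probe set reads was not examined here.

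BIK, a BH3-only protein of the endoplasmic reticulum, read 9.18 and 8.97 in Dox- and 9.25 and 9.24 in Dox+ cells at 12 h. At 24 h the values were 8.98 and 9.19 against 9.37 and 9.46, and at 48 h 8.76, 8.80 and 8.93 against 9.27, 9.43 and 9.78. The gap was narrow at 12 h, and by 48 h the Dox- arrays were at their lowest and the Dox+ arrays spread widely above them. The difference was 0.17 ± 0.15, 0.34 ± 0.14 and 0.66 ± 0.12 (log2, SE) at the successive times. At 48 h the gene was 1.58-fold higher and passed (limma adjusted p = 0.00333), while the adjusted p was 0.642 at 12 h and 0.207 at 24 h. The 48 h call was lost by the methods' t-test (0.0695). The change in effect from 12 to 48 h, 0.49 ± 0.19, did not pass (adjusted p = 0.158).

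BID, which caspase 8 cleaves to link death receptors to mitochondria, and PMAIP1, which mainly binds MCL1, did not pass at any time. BID at 48 h read 10.14, 10.26 and 10.29 in Dox- and 9.95, 10.01 and 10.16 in Dox+ cells, groups that overlapped slightly, with a difference of -0.19 ± 0.07 (adjusted p = 0.101). Its probe set 204493_at was lower by 0.24 at 48 h (adjusted p = 0.0275 over all probe sets), and 227143_s_at differed by -0.08. BID therefore passed as lower with some choices and not with others. PMAIP1 lay between 3.46 and 3.87 on all 14 arrays, with differences of -0.16, -0.15 and -0.12 at 12, 24 and 48 h. That is near the low end of the array's scale, where a change is hard to see. The other probe set of PMAIP1, 204286_s_at, differed by -0.20, 0.20 and 0.04 without passing, so the 2 probe sets pointed opposite ways at 24 and 48 h.

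Of the effectors, BAX was the one that passed, and narrowly. At 48 h it read 9.69, 9.72 and 9.79 in Dox- and 9.98, 9.90 and 10.07 in Dox+ cells. The difference of 0.25 ± 0.07 (1.19-fold, limma adjusted p = 0.0225) was smaller than those of the other 4 genes that passed. It no longer passed without Dox- replicate 1 (0.0794), Dox- replicate 2 (0.0665), Dox+ replicate 1 (0.0594) or Dox+ replicate 3 (0.0598), nor in 1 fit of all 14 arrays (0.623). The other probe set of BAX, 208478_s_at, differed by 0.18 and did not pass (0.0886).

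BAX also moved with time in the absence of doxycycline. Its Dox- arrays read 8.66 and 9.18 at 12 h, 9.52 and 9.34 at 24 h, and 9.69 to 9.79 at 48 h, ranges that did not overlap. At 12 h the Dox+ arrays read 8.44 and 9.75, wider apart than any 2 arrays of 1 group for the main probe sets of the other 8 genes. The lower value was on replicate 1. Some other probe sets were wider apart on these arrays, such as 214056_at of MCL1 (7.41 and 5.86) and 215037_s_at of BCL2L1 (5.20 and 6.58). The differences of BAX at 12 and 24 h were 0.18 ± 0.39 and -0.06 ± 0.13, and neither passed (limma adjusted p = 0.857 and 0.856). The ACTB 3′ to 5′ difference was also larger in Dox- cells at 12 h than at 24 and 48 h, and its part in this rise was not tested.

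BAK1, the other effector, read 8.10, 8.18 and 8.28 in Dox- and 8.19, 8.15 and 8.13 in Dox+ cells at 48 h, a difference of -0.03 ± 0.06 (adjusted p = 0.807). Those groups overlapped fully. At 12 h the Dox+ arrays read 7.59 and 8.26, the lower again on replicate 1, against 8.19 and 8.20. The differences at 12 and 24 h, -0.27 ± 0.22 and -0.08 ± 0.13, did not pass.

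**Figure D3:**
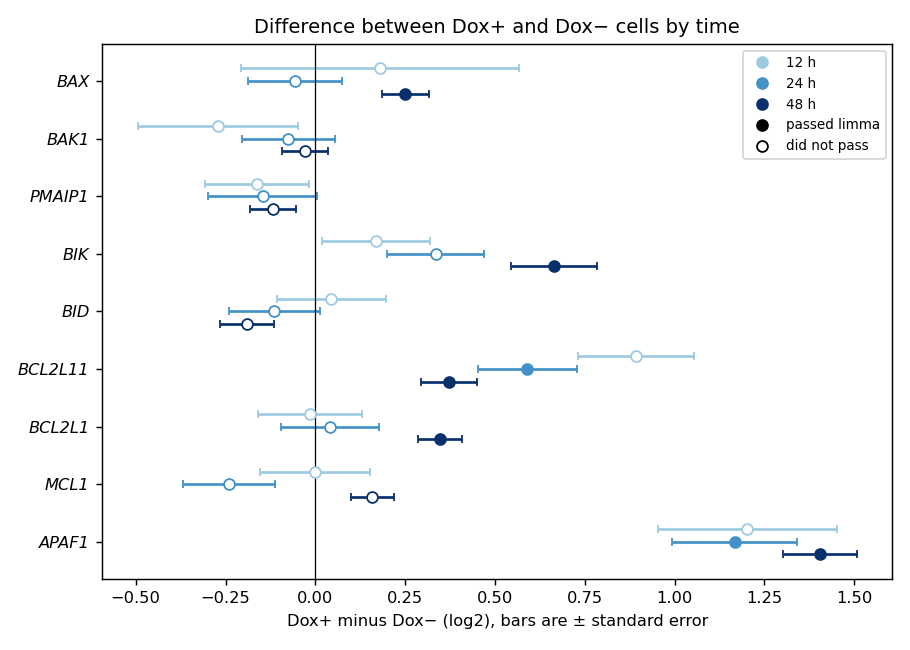
The difference between Dox+ and Dox- cells (log2) of each of the 9 genes at 12, 24 and 48 h, with bars of ± 1 SE from limma. Filled points passed at an adjusted p under 0.05: 0 at 12 h, 2 at 24 h and 5 at 48 h.

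Among the anti-apoptotic members, BCL2L1 was higher at 48 h and MCL1 did not pass on its main probe set. BCL2L1 read 10.00, 10.06 and 10.15 in Dox- and 10.41, 10.40 and 10.45 in Dox+ cells at 48 h. The groups stood well apart, by 0.35 ± 0.06 (1.27-fold, limma adjusted p = 0.00301). All 4 of its probe sets passed as higher at 48 h, by 0.35 to 0.44, and the call of the main one held in all 15 alternatives tried at that time, as did that of APAF1. At 12 and 24 h the differences were -0.02 and 0.04. The other probe sets disagreed at these times without passing, 206665_s_at at -1.06 and -0.35, 215037_s_at at -0.61 and -0.38, and 231228_at at 0.15 and 0.25. The level of Dox- cells was lower at 48 h (10.07 ± 0.08, SD over 3 arrays) than at 12 h, where the arrays read 10.31 and 10.35, whereas Dox+ arrays lay between 10.26 and 10.45 at all times. The change in effect between 12 and 48 h, 0.36 ± 0.13, did not pass (adjusted p = 0.147), and with the probe set chosen by interquartile range it was 1.50 and did not pass either (0.0922).

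MCL1, a short-lived protein that restrains BAK1 and BIM, had 6 probe sets. The main one read 11.77 and 11.67 in Dox- and 11.44 and 11.52 in Dox+ cells at 24 h, and 11.79, 11.73 and 11.80 against 11.91, 11.88 and 12.00 at 48 h. Dox+ arrays were thus below Dox- arrays at 24 h and above them at 48 h, but neither difference passed (-0.24 ± 0.13, adjusted p = 0.346, and 0.16 ± 0.06, adjusted p = 0.0949). The change of 0.40 ± 0.13 between them did not pass either (0.230). At 24 h 200796_s_at and 200798_x_at were lower by 0.74 and 0.69 (adjusted p = 0.0198 and 0.0234 over all probe sets), while the 3 besides these and the main one lay between 0.12 and 0.51, so the probe sets of MCL1 pointed both ways. None passed at 48 h, although the main one did as higher with dim genes left out (0.0301) and with trend and robust eBayes (0.00839).

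**Figure D4:**
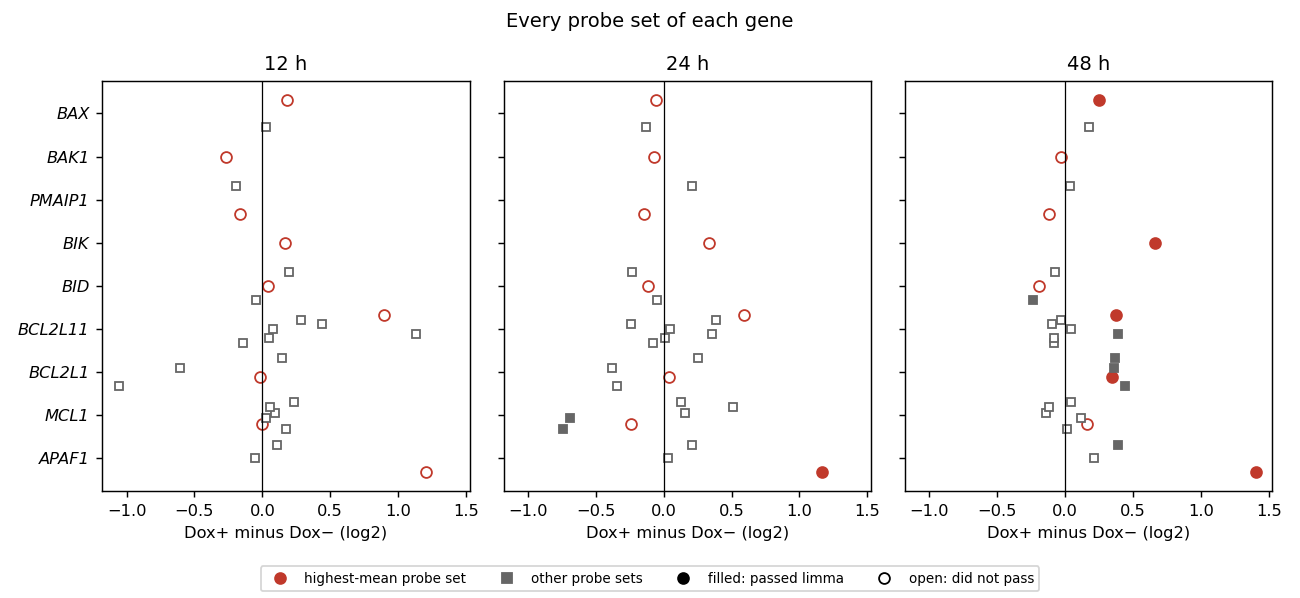
The difference between Dox+ and Dox- cells (log2) for all 29 probe sets of the 9 genes at 12, 24 and 48 h, with the highest-mean probe set as a red circle and the others as grey squares. Filled symbols passed with p-values adjusted over all 41091 probe sets, under which the main probe set of BCL2L11 does not pass at 24 h, and all 4 probe sets of BCL2L1 lie to the right of 0 at 48 h.

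Counted over probe sets, 0 of 29 passed at 12 h, 3 at 24 h and 11 at 48 h, beside 0.173%, 5.22% and 17.4% of all 41091 probe sets. Of the 11 at 48 h, 10 were higher (8.19% of all probe sets) and 1, of BID, was lower (9.19%). At 24 h the 3 were the main probe set of APAF1, which was higher (2.07%), and the pair of MCL1 named above, which were lower (3.15%). The groups of the main probe sets did not overlap, with Dox+ higher, for 6 of 9 genes at 48 h (17.4% of all genes), 3 of 9 at 24 h (26.6%) and 3 of 9 at 12 h (19.3%).

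Other genes of the pathway, in lists that hold none of the 9, were called in both directions. Of the other anti-apoptotic members, BCL2, BCL2A1, BCL2L2 and BCL2L10, 0 of 4 passed at any time. Among 9 other BH3-only and BCL2-related genes, 3 were higher and 2 lower at 48 h. The apoptosome and caspase list had 0 higher and 1 lower of 7 measured, the IAP list and its mitochondrial antagonists 0 and 1 of 6, and the mitochondrial channels and released factors 0 and 3 of 5. Of 6 further apoptosis genes that the p53 family activates, 2 were higher and 3 lower. Background shares are those given above for 48 h, with 12.9% of all genes lower.

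BCL2L12, a BCL2-related protein reported to inhibit caspases, was the gene of these lists with the widest difference at 48 h. It read 9.53 to 9.64 in Dox- and 8.86 to 8.95 in Dox+ cells. The groups stood far apart, by -0.71 ± 0.06 (0.613-fold, limma adjusted p = 5.26e-05). It was also lower at 24 h, by -0.74 ± 0.14 (0.0163), a call lost without Dox- 24 h replicate 1 (0.0688), and at 12 h it differed by -0.27 without passing (0.444).

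BIRC5 (survivin), an inhibitor of apoptosis protein that also acts in mitosis and is made mainly in dividing cells, was 10.26 to 10.36 in Dox- and 9.42 to 9.80 in Dox+ cells at 48 h. The difference was -0.66 ± 0.10 (adjusted p = 0.000965), and all 4 of its probe sets were lower. At 24 h they disagreed, with 210334_x_at lower by 0.94 (adjusted p = 0.00798 over all probe sets) and 1555826_at higher by 0.80 (0.0328). VDAC1, the main channel of the outer mitochondrial membrane, was 11.63 and 11.73 against 11.05 and 11.11 at 24 h, a difference of -0.60 ± 0.13 (0.0303), and it differed by -0.24 ± 0.07 at 48 h (0.0287). The call of VDAC1 was lost when any 1 array was left out at 24 h (0.0654 to 0.113) and for 4 of the 6 arrays at 48 h, Dox- replicates 2 and 3 and Dox+ replicates 2 and 3 (0.0520 to 0.0959).

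The remaining calls at 48 h were under 0.5 in size and are named here after their values were seen. PERP, a membrane protein of desmosomes, was higher by 0.45, BNIP3L (NIX), a mitophagy receptor, by 0.43, TP53INP1 by 0.30 and BAD, a BH3-only protein held inactive by phosphorylation, by 0.27. DFFB, the nuclease that cuts DNA in apoptosis, was lower by 0.40, ENDOG by 0.31, BOK by 0.28, SIVA1 by 0.27, AIFM1 by 0.26, AEN by 0.20 and TRIAP1 by 0.19. BCL2L13 was higher by 0.19 on its main probe set and differed by -0.09 on the one with the largest interquartile range. The calls of AEN, TRIAP1 and BCL2L13 were each lost when any 1 array was left out (adjusted p 0.0596 to 0.137, 0.0579 to 0.115 and 0.0745 to 0.143). Of 15 alternatives BAD passed in 8, SIVA1 in 9 and TP53INP1 in 10. BAD was lost without any 48 h array but Dox+ replicate 1 (up to 0.0903), SIVA1 without Dox- replicates 1 or 3 or Dox+ replicates 1 or 2 (up to 0.0909), and TP53INP1 without Dox- replicates 1 or 2 or Dox+ replicate 3 (up to 0.0941). CASP9, the caspase that APAF1 activates, and CYCS, cytochrome c, differed by -0.09 and -0.01 and did not pass.

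**Figure D5:**
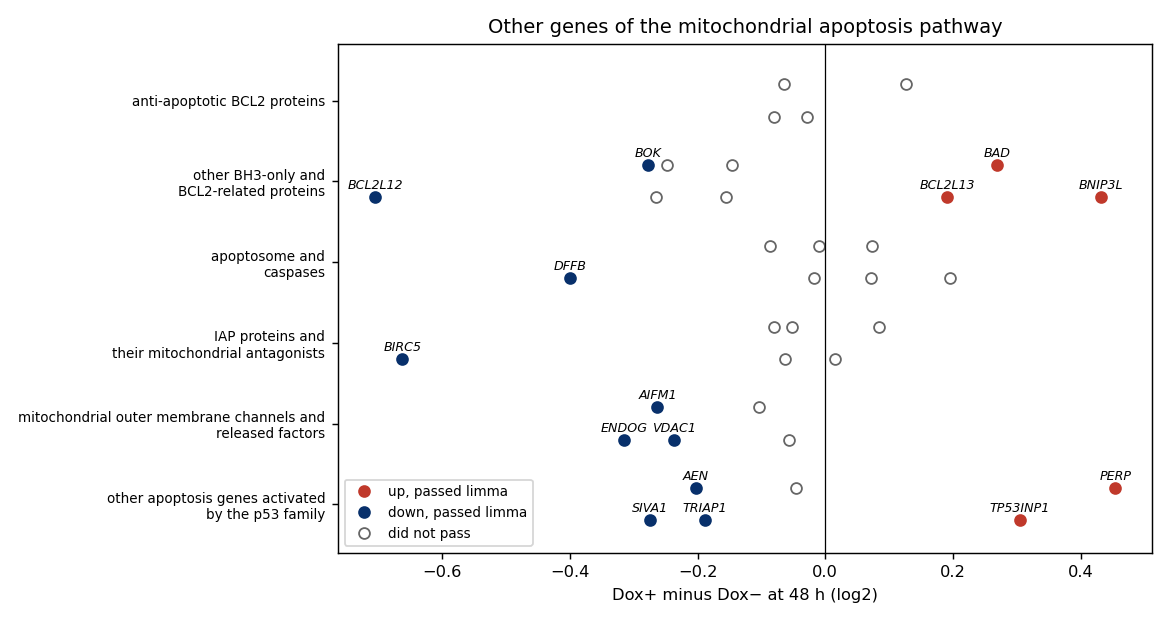
The difference between Dox+ and Dox- cells at 48 h (log2) of the genes in 6 pathway lists, 1 list per row with points set alternately up and down for legibility. Genes that passed limma are filled and named, red where higher and blue where lower, and BCL2L12 and BIRC5 lie farthest to the left.

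For the 5 genes that passed at 48 h, the 2 genes whose levels followed theirs most closely over the 14 arrays were found by Pearson's r, as a description. The closest to APAF1 were MDM2 (r = 0.981), a ubiquitin ligase, and GHR (0.980), the growth hormone receptor. BAX was followed by PDIA3 (0.969) and SCAND1 (0.959), BCL2L11 by TJAP1 (0.941) and EPPK1 (0.937), BIK by H2BC12 (0.938) and PSLNR (0.931), and BCL2L1 by PPP2R5B (0.914) and FAM89B (0.901). The points share the same 14 arrays, with doxycycline, time and RNA condition varying together, and the 2 names for each gene are the highest of 19775 genes compared.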

How the data were processed

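The deposited table holds log2 expression values, which the authors obtained from Affymetrix U133 Plus 2.0 arrays by RMA (background correction, quantile normalisation and probe summary); the submitters' processing notes name R 3.5.1. RMA sets the probe values of the arrays to 1 distribution before they are summarised, so a shift common to all genes can be hidden. The deposited arrays still differed slightly in their medians. These were 5.26 to 5.28 (log2) in Dox- and 5.20 to 5.22 in Dox+ cells at 12 h, and 5.16 to 5.20 and 5.21 to 5.24 at 24 h. At 48 h they were 5.15 to 5.19 and 5.17 to 5.20. Of 54675 probe sets, 62 hybridisation controls were left out, and 41091 were annotated to 1 gene, 1801 to several and 11721 to none. Probe sets were named by the platform annotation, updated through Entrez identifiers (41037 matched). Promoters came from RefSeq.

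Groups followed the labels. Dox+ and Dox- arrays of each time point were compared with limma 3.58.1 (lmFit and eBayes, R 4.3.3), p-values being adjusted by Benjamini-Hochberg across the 19775 genes and called under 0.05. Effects were compared between times in 1 fit of all 14 arrays and counted where they passed with and without array weights. Array depth is not counted in reads, and the number of arrays limits the precision. The fits were tested on simulated data. Alternatives were other probe sets, filters, normalisation, a replicate block, the t-test of the methods and leaving out each array.

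The genes and lists were chosen with earlier results of these data known. The text names all 9 genes, list genes that passed with a log2 difference of at least 0.5, and the 2 genes most alike. Each probe set of the 9 genes is given by value or range for at least 1 time point, but not always for every one. The plot of differences by probe set shows each of them at every time. Genes of the lists with no probe set of 1 gene, such as TP63, BIRC3 and CD68, were not analysed here. Figures were drawn with matplotlib.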

Additional observations from a re-analysis of the deposited data

How the results depend on the processing

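One limit is the number of arrays: groups of 2 at 12 and 24 h leave few degrees of freedom, and a p that misses the threshold there does not show equal levels. At 12 h the count of the 9 genes that passed went from 0 to 2 (APAF1 and BCL2L11) in 1 fit of all 14 arrays and to 2 with the replicate block, and lay between 0 and 1 when 1 array was left out. At 24 h it went from 2 to 1 with every probe set on its own, to 0 by the methods' t-test and to 1 without any 1 array, and rose to 3 with probe sets chosen by interquartile range, where MCL1 passed as lower (-0.74, adjusted p = 0.0188). Over all genes the choice by interquartile range moved the 24 h calls from 596 higher and 556 lower to 642 and 1046. At 48 h the count of the 9 genes went from 5 to 2 (BCL2L1 and APAF1) by the methods' t-test, and was 4 to 7 otherwise. At an unadjusted p under 0.05 the t-test gave 1, 2 and 6 of the 9 at 12, 24 and 48 h. The share of all genes at that threshold is not given here, so these counts cannot be judged against it. The effect of BCL2L11 at 48 h minus that at 12 h lay between -0.68 and -0.36 when 1 array was left out, in fits without array weights. Where a group of 2 loses an array, the lone array is assumed to vary like the others. The cause of these moves was not tested.

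Replicate numbers are shared between Dox- and Dox+. The deviations of same-numbered arrays correlated at 0.25 at 12 h, -0.11 at 24 h and 0.11, 0.09 and 0.10 at 48 h, where each array correlated best with its own number, a hint from the data and not the design, so the numbers were not taken as pairs. With the replicate block the counts were 2, 2 and 5, and over all genes 385 higher and 84 lower at 12 h, against 128 and 4. In 1 fit of all 14 arrays the counts over all genes moved to 1040 and 643 (12 h), 1106 and 1202 (24 h, from 596 and 556) and 1437 and 1361 (48 h, from 2229 and 2549). The methods' t-test gave 0 of all genes at 12 and 24 h, and 1540 higher and 1937 lower at 48 h. Leaving out 1 array gave 4 to 153 higher and 0 to 74 lower at 12 h.

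Among the 9 genes, signs turned only for differences that had not passed. Choosing probe sets by interquartile range turned BID and MCL1 at 12 h (-0.049 and 0.17), BCL2L1 at 24 h (-0.35), the change of MCL1 from 12 to 48 h (-0.16), and, beyond the 9, BCL2L13 at 48 h (-0.094), which had passed. Quantile normalization turned BID at 12 h (-0.0076), BAX at 24 h (0.031), and the changes of PMAIP1 from 12 h (-0.044) and BAK1 from 24 h (-0.014). Without 1 array, values at 12 h spanned -0.47 to 0.83 for BAX, -0.10 to 0.10 for MCL1, -0.041 to 0.13 for BID, -0.077 to 0.045 for BCL2L1 and -0.61 to 0.063 for BAK1. At 24 h they spanned -0.15 to 0.033 for BAX, -0.074 to 0.16 for BCL2L1, -0.16 to 0.0071 for BAK1 and -0.31 to 0.013 for PMAIP1, and at 48 h -0.073 to 0.016 for BAK1. Changes from 12 to 48 h spanned -0.58 to 0.72 for BAX, -0.0063 to 0.095 for PMAIP1, -0.14 to 0.54 for APAF1 and -0.093 to 0.58 for BAK1, and those from 24 h -0.037 to 0.13 for BAK1 and -0.13 to 0.19 for PMAIP1.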
